A study of Mus musculus with 10 samples.

Results

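The genes described here encode the machinery of MHC class II antigen presentation. They are the chains H2-Aa, H2-Ab1 and H2-Eb1, the invariant chain Cd74, the peptide loading subunits H2-DMa and H2-DMb1, and the transactivator Ciita. Rows were taken by gene symbol from a table of 47702 genes, and all 7 symbols were found once. The values came from whole liver of 2 groups of female mice with 5 libraries each. The first group carried a whole-body knockout of Etnppl (KO), and the second was wild type at Etnppl (WT). Both groups ate chow for 20 weeks. Etnppl encodes the lyase that splits phosphoethanolamine, a precursor of a major membrane phospholipid. No source used here gives the strain, the age at the start of the diet or which exons were targeted.

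MHC class II molecules are pairs of an alpha and a beta chain that display peptides from ingested protein to CD4 T cells. The invariant chain escorts new pairs to the endosome, where proteases cut it away and DM exchanges its last fragment for a peptide. Ciita switches the whole set on by joining factors that sit on a shared promoter module, the X and Y boxes. In liver the professional presenting cells are Kupffer cells, dendritic cells and B cells, and sinusoidal endothelium can also carry class II.

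The promoter stretches of 2 chain genes that differed between the genotypes are shown because the shared module lies in them. Coordinates and letters are from RefSeq (GRCm38.p6), 5′ to 3′ along the gene. Capitals mark an X box core, GNAACT, and then a Y box core, GATTGG, the reverse complement of CCAATC. Both cores were chosen after these sequences had been read.
H2-Aa, chr17:34287833-34287934, minus strand: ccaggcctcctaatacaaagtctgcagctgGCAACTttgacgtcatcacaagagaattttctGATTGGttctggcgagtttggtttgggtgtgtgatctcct
H2-Eb1, chr17:34305746-34305846, plus strand: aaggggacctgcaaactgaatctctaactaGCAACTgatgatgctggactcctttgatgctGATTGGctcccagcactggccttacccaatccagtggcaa
In H2-Aa the X core began 81 bases and the Y core 49 bases before the annotated start. In H2-Eb1 they began 91 and 60 bases before it. H2-DMb1 held GTAACT at 94 and GATTGG at 62 bases before its start. The gap between the cores was 26, 25 and 26 bases in H2-Aa, H2-Eb1 and H2-DMb1. Of the 7 genes, 4 were in the promoter table, and the module was found in these 3. It was not found in the windows of H2-DMa, which says only that these letters are not there. Across all 32851 promoter windows of 250 bases, the same pair of cores, in this order and 10 to 30 bases apart, occurred along the gene in 0.15% and on either strand in 0.3%. The Y core alone occurred on either strand in 14.6%. The cores were chosen after reading, and the range of 10 to 30 bases takes in the gaps seen in these genes. The shares therefore describe the module and do not test it. H2-Eb2, a second E beta gene, was among the 49 windows with the pair along the gene.

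The tissue read as liver, with hepatocyte markers summing to between 59140 and 65020 FPKM in KO and between 54080 and 59450 FPKM in WT. FPKM counts sequenced fragments per unit of transcript length, scaled to the size of the library. Etnppl itself was at 22.1 ± 3.92 FPKM in KO and 65.8 ± 26 FPKM in WT (SD, n = 5 each), and no KO library reached the lowest WT library (log2 difference -1.49, SE 0.23, limma adjusted p = 0.005). Relative depth, estimated from genes with few fragments, averaged 0.955 in KO and 1.05 in WT (exact two-sided permutation test, p = 0.048, n = 5 each), and its part in the results was not tested. Of the 12247 genes whose 10-library mean reached 0.5 FPKM, 8.54% were called at a limma adjusted p under 0.05, 4.56% as lower and 3.98% as higher in KO.

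The 3 chain transcripts fell in KO, each to about the same share of its WT mean. H2-Aa, the alpha chain of the A molecule (chromosome 17, 34282744 to 34287823), had 21.55, 22.84, 24.58, 21.62 and 16.21 FPKM in KO libraries 1 to 5, against 33.09, 25.82, 30.44, 24.8 and 26.84 FPKM in WT libraries 1 to 5. The groups did not overlap, but only 0.22 FPKM separated the highest KO library from the lowest WT library. The log2 difference was -0.40 (SE 0.11, 95% interval -0.64 to -0.15, limma adjusted p = 0.048), with KO at 75.8% of the mean in WT.

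H2-Ab1 encodes the beta chain that pairs with H2-Aa (chromosome 17, 34257689 to 34269419). It had 17.77, 18.59, 17.83, 19.22 and 14.22 FPKM in KO libraries 1 to 5, against 27.83, 23.39, 22.99, 20.08 and 22.06 FPKM in WT libraries 1 to 5. Every KO library was again below every WT library, with a margin of 0.86 FPKM. The log2 difference was -0.40 (SE 0.10, 95% interval -0.61 to -0.19, limma adjusted p = 0.029), with KO at 75.3% of the mean in WT.

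H2-Eb1 encodes the beta chain of the E molecule (chromosome 17, 34305867 to 34316674). It had 13.43, 14.45, 15.66, 14.91 and 10.12 FPKM in KO libraries 1 to 5, against 22.15, 17.08, 18.65, 16.83 and 17.12 FPKM in WT libraries 1 to 5. The groups were apart by 1.17 FPKM, the widest margin of the 3 chains. The log2 difference was -0.42 (SE 0.12, 95% interval -0.67 to -0.16, limma adjusted p = 0.046), with KO at 74.7% of the mean in WT. The antisense gene Gm20513, which overlaps H2-Eb1, was listed at 0 in all 10 libraries. The E alpha pseudogene H2-Ea-ps was also listed at 0 in all 10.

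The invariant chain did not pass the test. Cd74 (chromosome 18) was the most abundant of the 7 transcripts on the FPKM scale. It had 71.88, 86.65, 94.87, 73.42 and 56.05 FPKM in KO libraries 1 to 5, against 115.25, 95.35, 98.68, 93.84 and 91.16 FPKM in WT libraries 1 to 5. The groups overlapped through KO 3, which lay above WT 4 and WT 5, while the other 4 KO libraries were below every WT library. The log2 difference was -0.38 (SE 0.12, 95% interval -0.66 to -0.11, limma adjusted p = 0.079), close in size to the differences of the chains. Its spread was wider in KO, with a coefficient of variation of 19.5%, than in WT, with 9.67%.

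**Figure D1:**
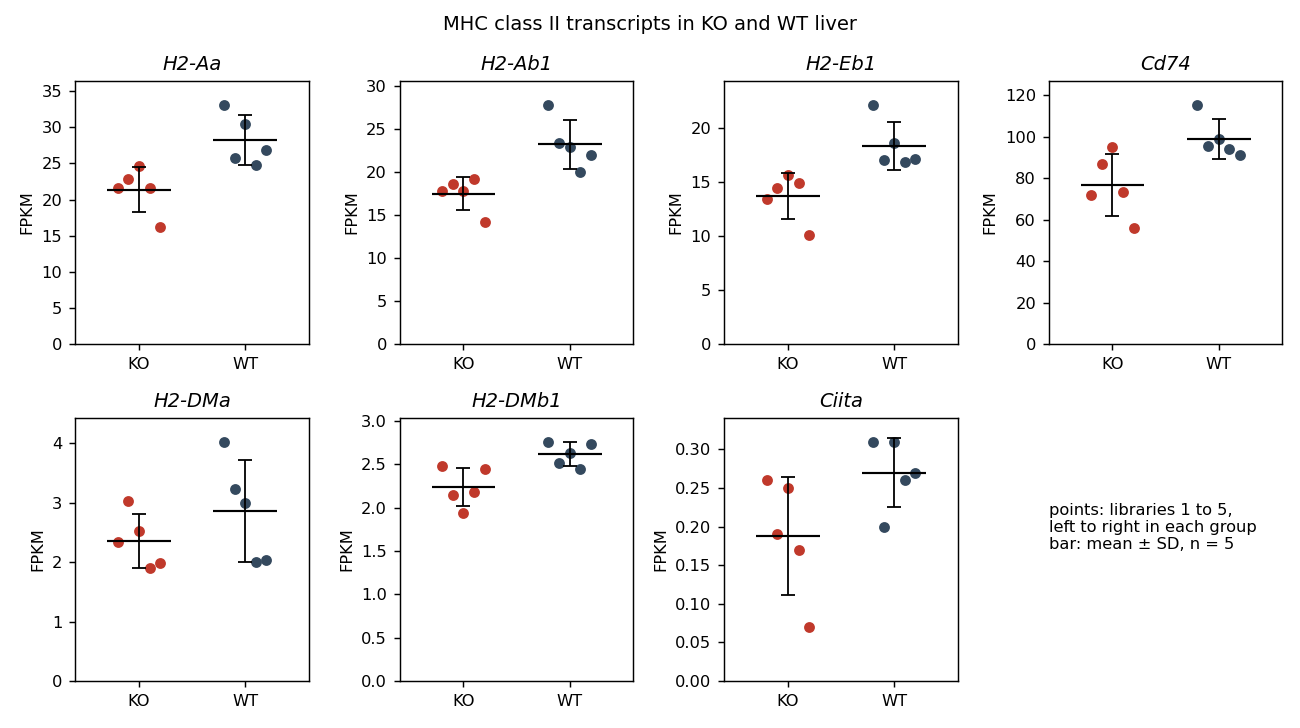
FPKM of the 7 class II genes in each KO (red) and WT (blue) library, with mean and SD of 5 libraries. The groups are apart for H2-Aa, H2-Ab1 and H2-Eb1 and overlap for Cd74, H2-DMa, H2-DMb1 and Ciita.

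Neither peptide loading subunit passed the test. H2-DMb1, the DM beta chain (chromosome 17, 34153072 to 34160230), had 2.48, 2.15, 1.94, 2.18 and 2.44 FPKM in KO libraries 1 to 5, against 2.76, 2.51, 2.63, 2.45 and 2.73 FPKM in WT libraries 1 to 5. The groups overlapped by 0.03 FPKM, with KO 1 just above WT 4. The log2 difference was -0.19 (SE 0.08, 95% interval -0.37 to -0.01, limma adjusted p = 0.18, unadjusted p = 0.041).

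H2-DMa, the DM alpha chain (chromosome 17, 34119541 to 34139101), had 2.34, 3.03, 2.52, 1.9 and 1.99 FPKM in KO libraries 1 to 5, against 4.03, 3.24, 3, 2 and 2.03 FPKM in WT libraries 1 to 5. WT was split, with WT 4 and WT 5 at the level of the lowest KO libraries and WT 1 above all others. The log2 difference was -0.21 (SE 0.17, 95% interval -0.59 to 0.17, limma adjusted p = 0.5). H2-DMa overlaps Brd2 on the opposite strand in the annotation, and the strand setting of the counting was not given, so some of its fragments may belong to Brd2. Brd2 was at 37.9 ± 4.91 FPKM in KO and 42.4 ± 7.37 FPKM in WT (SD, n = 5 each).

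Ciita (chromosome 16, 10480059 to 10528418) was below the filter of 0.5 FPKM and did not enter the main fit across genes. It had 0.26, 0.19, 0.25, 0.17 and 0.07 FPKM in KO libraries 1 to 5, against 0.31, 0.2, 0.31, 0.26 and 0.27 FPKM in WT libraries 1 to 5. The groups overlapped, and KO 5 was the lowest library. The difference of mean log2(FPKM + 0.5) was -0.17 and did not pass an exact two-sided permutation test (p = 0.063, n = 5 and 5; the smallest p this design allows is 0.0079). At such levels the pseudocount of 0.5 FPKM understates the fold, and KO averaged 69.6% of the level in WT. Dexi overlaps Ciita on the opposite strand and reached 10.79 FPKM.

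In all, 3 of 6 tested class II genes were called, all lower, beside 4.56% of all tested genes called lower. The same 3 had every KO library below every WT library, beside 4.78% of all tested genes (8.87% were separated in either direction). The median log2 difference of the 6 was -0.39, beside -0.02 over all tested genes. Neither figure is independent evidence, since these genes were picked with earlier results of the same libraries known. In whole tissue, fewer cells that express class II and less class II RNA per cell cannot be told apart.

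The calls sat near the threshold and depended on single libraries. Leaving out 1 library at a time kept every log2 difference of the 3 chains negative, between -0.47 and -0.30. H2-Aa and H2-Eb1 stayed called only without KO 3 and lost the call without any of the other 9 libraries (limma adjusted p up to 0.1 and 0.095). H2-Ab1 lost the call without KO 1, KO 5, WT 1, WT 2 or WT 5 (limma adjusted p up to 0.055). Cd74 gained a call without KO 3 (limma adjusted p = 0.04). Ciita passed the exact permutation test without KO 1 (p = 0.04), KO 3 (p = 0.048) or WT 2 (p = 0.048). It did not pass in the other 7 runs (exact permutation test, p up to 0.15). With no filter on low values, which adds low genes to the multiple testing, none of the 7 was called.

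**Figure D2:**
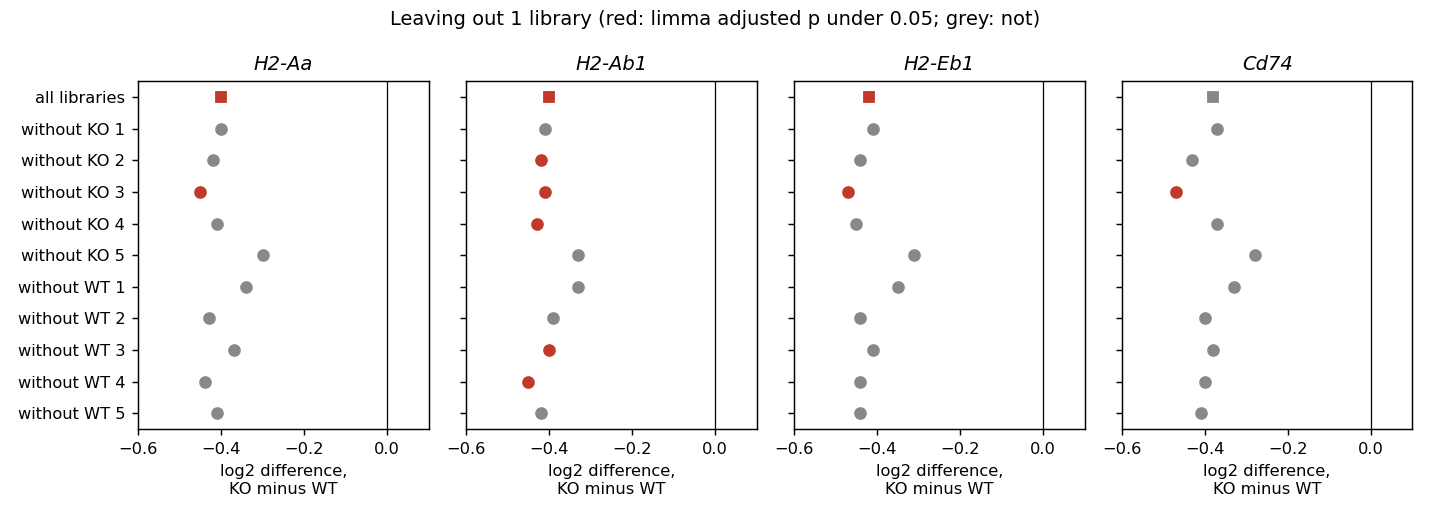
Log2 difference (KO minus WT) of the chains and Cd74 with all libraries (squares) and without each library in turn (circles), red where the limma adjusted p is under 0.05. All points lie between -0.47 and -0.28, smallest in size without KO 5 or WT 1, and most are grey.

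A pair of libraries lay at the extremes. WT 1 was the highest library for all 6 tested class II genes, and KO 5 was the lowest for 4 of 6. As deviations from the mean of its own genotype, KO 5 lay at -0.37 for H2-Aa, -0.29 for H2-Ab1, -0.41 for H2-Eb1 and -0.42 for Cd74 on the log2 scale. H2-DMb1 was at 0.11 in the same library. WT 1 lay between 0.23 and 0.27 for the chains and Cd74, and at 0.47 for H2-DMa. Without both libraries the log2 differences were -0.25 for H2-Aa, -0.26 for H2-Ab1, -0.25 for H2-Eb1 and -0.22 for Cd74, and none was called (limma adjusted p from 0.073 to 0.21).

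**Figure D3:**
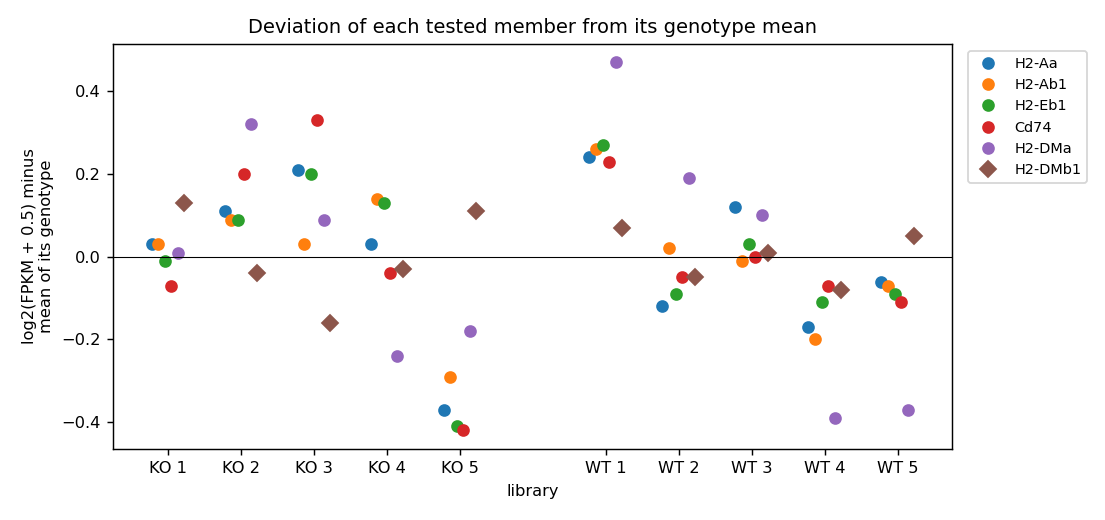
Log2(FPKM + 0.5) of each tested class II gene minus the mean of its genotype, by library. KO 5 is low and WT 1 high for the chains and Cd74, while H2-DMb1 (diamonds) lies above 0 in both libraries.

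Within a genotype the chains and Cd74 varied together from library to library. Over the 10 libraries, Pearson's r of the within-genotype deviations was 0.96 between H2-Aa and H2-Eb1, 0.85 between H2-Aa and H2-Ab1, and 0.91 between Cd74 and either H2-Aa or H2-Eb1. H2-Ab1 had an r of 0.90 with H2-Eb1 and a lower one, 0.74, with Cd74. H2-DMa followed the chains and Cd74 less closely, with 0.63 against H2-Aa. H2-DMb1 did not follow them, with -0.29 against H2-Aa and -0.58 against Cd74. The DM subunits, which form 1 heterodimer, had an r of -0.04 with each other. Likeness of this kind was not confined to class II. Of 11027 other genes, 24 followed the mean of the remaining members more closely than H2-Aa did. The number was 20 for H2-Ab1, 44 for H2-Eb1 and 205 for Cd74. These values are descriptions without a test, and libraries share depth and tissue makeup across genes. They include KO 5 and WT 1, the libraries at the extremes, and the r between members was not recomputed without them.

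The proportions between the chains were nearly the same in both genotypes. The ratio of H2-Aa to H2-Ab1 FPKM was 1.22 ± 0.1 in KO and 1.21 ± 0.08 in WT, and that of H2-Eb1 to H2-Ab1 was 0.78 ± 0.061 in KO and 0.79 ± 0.041 in WT (SD, n = 5 each). Cd74 was at 1.45 ± 0.14 times the summed chains in KO and 1.42 ± 0.063 times in WT. The summed DM subunits were at 0.0887 ± 0.014 of the summed chains in KO and 0.0782 ± 0.0063 in WT. Each ratio overlapped between the genotypes. The ratio of H2-DMa to H2-DMb1 varied most, from 0.816 to 1.41 in KO and from 0.744 to 1.46 in WT.

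The genes whose within-genotype deviations were most like the mean of the 6 tested members, among 11033 genes averaging 1 FPKM or more, were Uba7 (r = 0.971 over 10 libraries), Irf9 (0.965), Samhd1 (0.953), Ctsb (0.951), Mpeg1 (0.946), Lilrb4a (0.942), Apol9b (0.93), Ifit1 (0.925), Ifih1 (0.919) and Ifit3 (0.917). Uba7 activates the ubiquitin-like protein Isg15, Irf9 is part of the interferon-activated transcription complex, Ifih1 senses viral RNA, and Mpeg1 is a pore-forming protein of macrophages. Without WT 1 and KO 5 the r of Lilrb4a was 0.59 and that of Ctsb 0.79, while Irf9 had 0.99 and Ifih1 0.91. None of the 10 was called between the genotypes by limma, with 3 at an unadjusted p under 0.05.

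Endosomal enzymes that prepare class II and its peptides moved in both directions. Of 8 tested, 3 fell, 1 rose and 4 did not pass (median -0.20), beside 4.56% of all tested genes called lower and 3.98% called higher. Ifi30, the thiol reductase that unfolds disulfide-bonded antigens, had 5.8, 5.56, 6.88, 6.4 and 5.33 FPKM in KO libraries 1 to 5, against 8.25, 9.31, 8.6, 8.2 and 7.61 FPKM in WT libraries 1 to 5. The groups did not overlap, and KO differed from WT by -0.46 on the log2 scale (SE 0.08, limma adjusted p = 0.0074). It stayed called whichever library was left out.

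Ctsl, the protease that trims the invariant chain in thymic epithelium and is abundant in liver, rose. It had 379.61, 362.7, 381.01, 376.65 and 378.92 FPKM in KO libraries 1 to 5, against 282.1, 342.78, 292.17, 278.85 and 270.8 FPKM in WT libraries 1 to 5. Every KO library was above every WT library, with WT 2 nearest, and KO differed from WT by 0.36 on the log2 scale (SE 0.06, limma adjusted p = 0.0065).

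The other calls among the processing enzymes were the cysteine protease Ctsh (-0.26, limma adjusted p = 0.013) and the asparaginyl endopeptidase Lgmn (-0.24, limma adjusted p = 0.036). Both were separated between the genotypes, as were 8.87% of all tested genes in either direction. Lgmn lost its call without any of 8 libraries, all but KO 3 and WT 4 (adjusted p up to 0.15 over the alternatives), while Ctsl and Ctsh stayed called whichever single library was left out. Without both WT 1 and KO 5, Ctsh lost its call (limma adjusted p = 0.072; 0.0097 to 0.072 over its alternatives).

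No gene of class II transcription was called. Of 15 tested, 10 estimates were lower and 5 higher (median -0.05), beside 54.3% of all tested genes with a lower estimate. Of the 15, 3 had an unadjusted p under 0.05. These were Irf1, an interferon-induced activator of the Ciita gene (-0.36, limma adjusted p = 0.083), the Y box factor Nfyb (-0.39, limma adjusted p = 0.086) and the myeloid factor Spi1 (-0.29, limma adjusted p = 0.18). Irf1 was between 6.49 and 7.43 FPKM in KO and between 6.61 and 10.94 FPKM in WT, so that only WT 4 lay among the KO libraries. Without WT 4 it was called (limma adjusted p = 0.013), and Nfyb was called without WT 2 (limma adjusted p = 0.049). Counts at an unadjusted p under 0.05, here and elsewhere, stand without the share of all tested genes at that cut. They are not read as results.

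**Figure D4:**
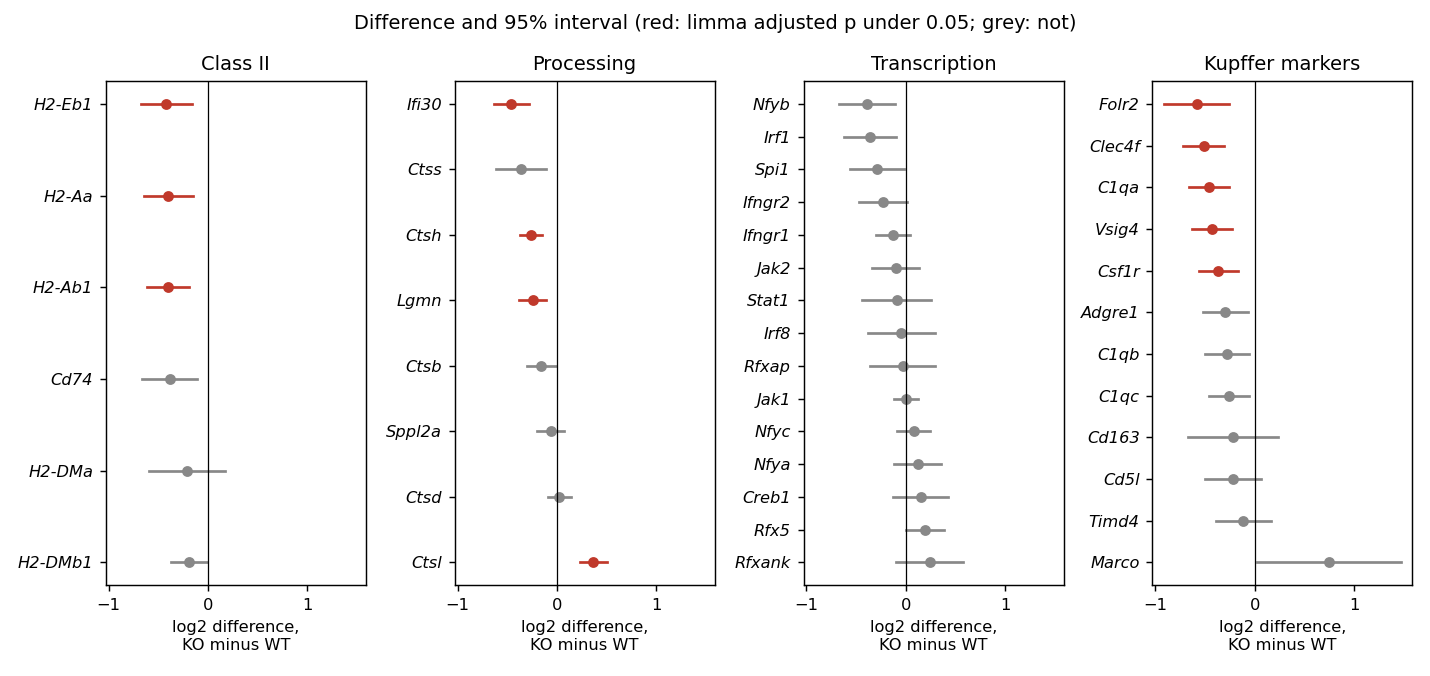
Log2 differences (KO minus WT) with 95% intervals for tested class II genes, processing enzymes, transcription genes and Kupffer cell markers, red where the limma adjusted p is under 0.05. The chains and 5 of 12 Kupffer markers are called lower, Ctsl is called higher, and no transcription gene is called.

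Other class II genes were at low levels. The second DM beta gene H2-DMb2 ranged from 0.39 to 0.89 FPKM in KO and from 0.59 to 0.97 FPKM in WT, and H2-Ob, a chain of the DM inhibitor DO, from 0.35 to 0.66 FPKM in KO and from 0.43 to 0.96 FPKM in WT. Neither was called, and both groups overlapped. No costimulation gene was called of 3 tested, with 0 at an unadjusted p under 0.05. Neighbours of the class II genes on chromosome 17 were not called either (0 of 10 by limma, median -0.09), with Tapbp (-0.29, limma adjusted p = 0.12) and Psmb8 (-0.35, limma adjusted p = 0.15), both of class I presentation, at an unadjusted p under 0.05.

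Of 12 tested Kupffer cell markers 5 were called lower, 0 higher and 7 did not pass, with a median of -0.29. Over all tested genes 4.56% were called lower, and the median was -0.02. Marco, a scavenger receptor, had the only higher estimate (0.75, limma adjusted p = 0.19), and was singled out after its values were seen. KO 4 stood at 26.06 FPKM against 7.95 to 10.86 FPKM in the other KO libraries, and without it the estimate was 0.45 (limma adjusted p = 0.24). Clec4f, a lectin of Kupffer cells, fell by 0.51 on the log2 scale, the complement subunit C1qa by 0.46, the complement receptor Vsig4 by 0.43, the growth factor receptor Csf1r by 0.37 and the folate receptor Folr2 by 0.58 (limma adjusted p from 0.0086 to 0.036). The 12 markers summed to 266.7, 247.7, 299, 277.6 and 207.5 FPKM in KO libraries 1 to 5, against 340.1, 340, 313.6, 316.7 and 297.6 FPKM in WT libraries 1 to 5. The genotypes overlapped through KO 3 and WT 5. KO 5 was the lowest library, as for the chains, and WT 1 and WT 2 were the highest. The number called was 3 without KO 2, KO 5, WT 1, WT 2 or WT 3, and 0 without both WT 1 and KO 5. No marker was at 0 in all libraries.

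Set against these markers, the class II chains overlapped between the genotypes. The summed chains were at 0.203 ± 0.013 of the summed Kupffer markers in KO and 0.217 ± 0.022 in WT (SD, n = 5 each), with ranges of 0.194 to 0.226 in KO and 0.195 to 0.244 in WT. Against 10 pan-leukocyte markers the ratio was 0.767 ± 0.061 in KO and 0.856 ± 0.051 in WT, with ranges of 0.697 to 0.828 and 0.788 to 0.913. The pan-leukocyte markers summed to between 57.34 and 83.37 FPKM in KO and between 72.29 and 93.19 FPKM in WT. Of them only the lysosomal protein Laptm5 was called (-0.40, limma adjusted p = 0.024), and it lost the call without KO 1, KO 5, WT 1 or WT 2. The list had 9 lower estimates and 1 higher (median -0.21), and the adaptor Tyrobp (-0.29, limma adjusted p = 0.11) and the integrin Itgb2 (-0.30, limma adjusted p = 0.16) had an unadjusted p under 0.05. The part of Kupffer cell and leukocyte content in the class II result was not tested.

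Markers of the other presenting cells were low, and none of those tested was called. The 5 B cell and 8 dendritic cell markers below the filter were not tested, so the medians do not cover them. Of 11 B cell markers 6 were tested, with a median of 0.04 and sums from 6.1 to 9.17 FPKM in KO and from 5.38 to 8.78 FPKM in WT. Of 12 dendritic cell markers 4 were tested, with a median of 0.07 and sums from 6.62 to 7.89 FPKM in KO and from 6.45 to 7.94 FPKM in WT. Of these 4, Fscn1 and Batf3 had higher estimates, and Clec9a and Zbtb46 lower. Neither list had a tested gene at an unadjusted p under 0.05, and none of their markers was at 0 in all libraries. The dendritic cell integrin Itgax was below the filter, at 0.13 to 0.2 FPKM in KO and 0.19 to 0.41 FPKM in WT. It was singled out after its values were seen. T cell markers summed to between 2.96 and 5.66 FPKM in KO and between 3.47 and 6.29 FPKM in WT, with a median difference of 0.06 over 5 tested genes, with none called and 0 at an unadjusted p under 0.05.

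Monocyte and infiltrating macrophage markers had a median of -0.14 over 8 tested genes (0.04 without WT 1 and KO 5) and none called, with Plac8 (-0.26, limma adjusted p = 0.14) at an unadjusted p under 0.05. Of 10 sinusoidal endothelial markers none was called by limma and 4 had an unadjusted p under 0.05 (median -0.06, sums from 215.2 to 243.6 FPKM in KO and from 233.9 to 243.9 FPKM in WT). These were Gpihbp1 (0.25, limma adjusted p = 0.072), Stab2 (-0.17, limma adjusted p = 0.13), Fcgr2b (-0.15, limma adjusted p = 0.15) and Ehd3 (-0.26, limma adjusted p = 0.16), which differed in sign. Of 3 tested cholangiocyte markers Sox9 was called lower (-0.56, limma adjusted p = 0.035), and it lost the call without KO 2, KO 3, KO 4, KO 5, WT 1, WT 2, WT 3 or WT 4. Sox9 was near the filter, averaging 0.504 FPKM in KO and 0.964 FPKM in WT. Its estimate was -0.86 with a pseudocount of 0.1 FPKM and -0.39 with 1 FPKM. The other 2 had higher estimates that did not pass, and the list's median was 0.03. Of 7 tested hepatocyte markers Cps1, the first enzyme of the urea cycle, was called higher (0.58, limma adjusted p = 0.0034). The list had 5 higher and 2 lower estimates (median 0.10), and the transcription factor Hnf4a was at -0.30 (limma adjusted p = 0.12, unadjusted p = 0.018). The part of these cell types in the class II result was not tested.

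**Figure D5:**
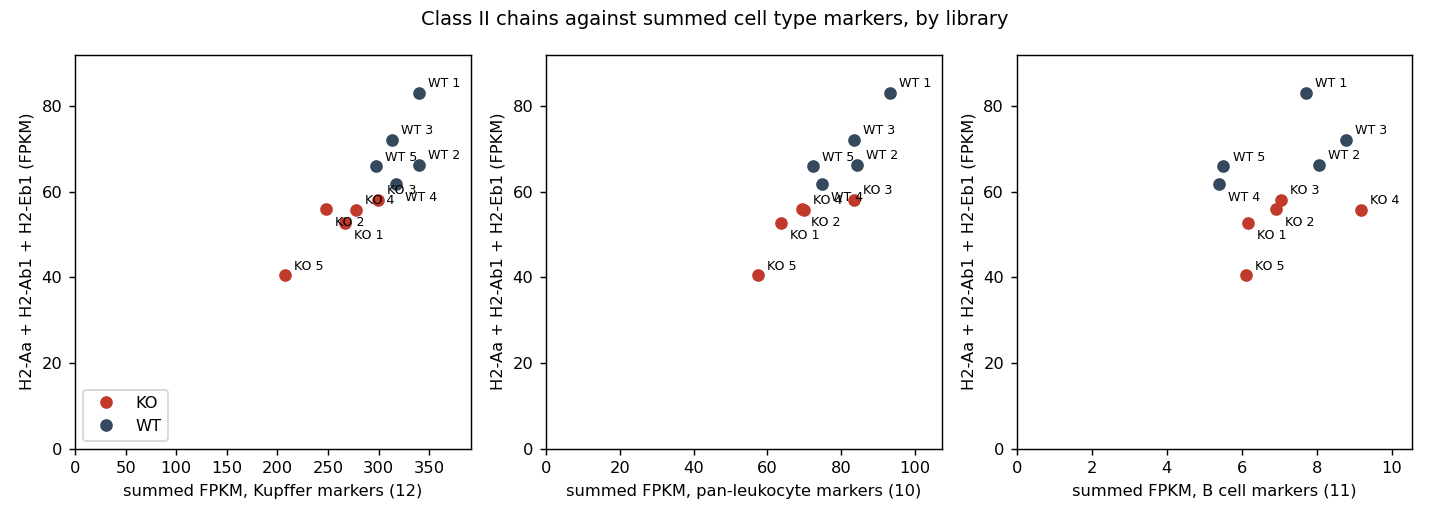
Summed FPKM of H2-Aa, H2-Ab1 and H2-Eb1 against the summed FPKM of Kupffer, pan-leukocyte and B cell markers in each KO (red) and WT (blue) library. KO 5 is lowest and WT 1 highest on both axes for the Kupffer and pan-leukocyte markers, and the genotypes overlap along the B cell axis.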

How the data were processed

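Liver poly-A RNA of 5 KO and 5 WT libraries was sequenced in paired ends, per the series' design text. The authors deposited FPKM per gene and library. The submitters' processing notes name STAR, RSEM, R 4.0.2, DESeq, DESeq2 and mm10, without roles; no source used here gives the annotation or the strand setting. Labels name samples by genotype and replicate number only, so p-values measure the spread between samples that may not be separate animals. No 2 libraries were identical.

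The FPKM were used as deposited, as log2(FPKM + 0.5). Genes averaging 0.5 FPKM or more were fitted with limma 3.58.1 in R 4.3.3 (eBayes, trend and robust, genotype only, two-sided, Benjamini-Hochberg over 12247 genes). Ciita had an exact permutation test. Relative depth is the ratio most often seen between libraries among genes of few fragments, with at least 31 genes a pair and disagreement up to 2.1%. Total reads were not given, so precision rests on the replicates. Positions are GENCODE (GRCm38). Of 146 list entries 4 were unmatched. The rule for named genes was all class II genes, Etnppl, the 4 tested genes with the smallest p in each list, with every called gene where a list had 6 or fewer, and the 10 genes most like the members. Of these 71, after the values were seen, differences were kept to the members, Etnppl and list genes at an unadjusted p under 0.05, and Marco was added. The members and lists were chosen with earlier results of these data known. Figures used matplotlib 3.10.9 in Python 3.11.15.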

Additional observations from a re-analysis of the deposited data

Results flagged for a closer look

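Of 68 groups of 5 libraries in the genes given with a difference, 3 held a library far from the other 4, and chance alone gives about 1 in 20 groups, or 3.4. Marco was at 26.06 FPKM in KO 4, against 7.95 to 10.86 FPKM in the other KO libraries. Ctsl was at 362.7 FPKM in KO 2, against 376.65 to 381.01 FPKM in the other KO libraries. Ctsh was at 225.1 FPKM in WT 5, against 194 to 202.28 FPKM in the other WT libraries. None of the 7 class II genes was flagged by this rule. H2-Ab1 still stood apart in KO 5, at 14.22 FPKM against 17.77 to 19.22 FPKM in the other KO libraries.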

How the results depend on the processing

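The 3 class II genes called became 0 with no filter on low values, 0 with the replicate number as a block, 0 without both WT 1 and KO 5 (an alternative added after seeing the data), and 0 to 4 without 1 library. All 1046 called genes became 664, 551, 330, and 576 to 1000 under the same settings. Upper-quartile scaling, quantile normalization and a non-robust fit kept 2 class II calls. Log2 differences of the 7 class II genes were negative under each alternative run. Of all calls, 46.7% were higher in KO as deposited, and 56.2% with quantile normalization. With the replicate block, Ctsh lost its call (limma adjusted p = 0.056) and Hnf4a gained one (0.042). The labels do not say whether replicate numbers pair the samples. Same-numbered deviations had correlations from -0.21 to 0.21, and 4 of 10 libraries correlated best with their own number. Such correlations cannot decide whether samples of the same number shared a batch or litter. At the level of Ciita, depth limits any comparison.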
